A study of Mus musculus with 6 samples.

Results

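The mRNAs of the 10 glycolytic enzymes Hk2, Gpi1, Pfkl, Pfkp, Aldoa, Tpi1, Pgk1, Pgam1, Eno1 and Ldha were followed from the first step of the pathway to lactate in neural stem/progenitor cells (NSC/NPCs) of the fetal hypothalamus after prenatal high estradiol (HE) exposure. The 10 were taken by name along the pathway, cover 9 of its 11 steps as counted here from glucose to lactate, and are 10 of the 22048 genes in the deposited table. All 10 had enough reads to be among the 13952 genes tested. RNA-Seq was available for 3 HE and 3 control (NC) samples of neurospheres, the floating clusters that such cells form in culture. Pregnant C57BL/6 mice aged 8 weeks received estradiol valerate at 100 μg/kg/d (HE) or the corn oil solvent (NC) through daily gavage between E5.5 and E11.5, and the labels of the NC samples call them untreated. NSC/NPCs of both groups came from hypothalami of male fetuses at E14.5, were grown with EGF and bFGF, and were harvested at the first passage. The samples were harvested separately, and each held cells of 2 mice. The RNA was thus that of cultured cells expanded under growth factors, and was not taken from the tissue directly.

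Glycolysis splits glucose into pyruvate in the cytosol. Hexokinase traps glucose as glucose-6-phosphate, glucose-6-phosphate isomerase turns it into fructose-6-phosphate, and phosphofructokinase adds a further phosphate in the step that commits the sugar to the pathway. Aldolase then cleaves the sugar into triose phosphates, which triose phosphate isomerase interconverts, and the lower steps from glyceraldehyde-3-phosphate dehydrogenase to pyruvate kinase yield ATP and NADH. Lactate dehydrogenase reduces pyruvate to lactate and restores NAD+. Neural progenitors are known for a strongly glycolytic metabolism, and many genes of the pathway are textbook targets of the hypoxia-inducible factor HIF-1 and of Myc.

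Reads counted on genes were 16078675 to 19137059 per sample, the fewest in HE3. HE3 stood apart from the other 5 samples in several measures given further on, so its values are shown separately, and the fitted log2 fold changes are given with and without it. Of 11 neural progenitor markers, Fabp7, Vim, Sox2, Nes and Slc1a3 were the most abundant, with Sox2 at 195 to 209 RPKM in NC, 172 to 176 RPKM in HE1 and HE2 and 97.3 RPKM in HE3, while Sox1, Pax6, Hes5, Msi1 and Prom1 lay between 1.81 and 13.8 RPKM. Sox2, Sox1, Msi1 and Prom1 were lower in each HE than in each NC sample, 4 of 11 against 17.9% of tested genes. The 9 hypothalamic regional markers summed to 310.1 RPKM in NC1, of which Pomc made up 302 RPKM, and to 7.65 to 12.1 RPKM in the other samples. Rax, Six6, Sim1 and Otp lay at or below 0.251 RPKM in each sample. Of the 9, 6 were tested, 3 with a log2 fold change above 0 and 3 below. Six6, Foxb1 and Nkx2-4 were higher in each HE than in each NC sample (14.8% of tested genes). All 3 had an unadjusted p-value under 0.05 in limma (8.68% of tested genes), and 0 of the 3 lower ones did (11.8%). Foxb1 was at 0.232 to 1.14 RPKM in NC, 1.33 to 3.76 RPKM in HE1 and HE2 and 2.79 RPKM in HE3. Nkx2-4 was at 0.704 to 2.09 RPKM in NC, 2.33 to 2.46 RPKM in HE1 and HE2 and 5.52 RPKM in HE3. Levels are given as RPKM, reads relative to the length of the gene and to all reads on genes in the sample. Comparisons between different enzymes thus depend on the length given for each gene in the deposited table. How well that length fits the mRNA present was not tested. Group differences are log2 fold changes of HE over NC on the log2(RPKM + 0.1) scale from limma, and an mRNA was called with an absolute log2 fold change of at least 1 and an adjusted p-value under 0.05. Of the 13952 genes, 0 were called (0%) by limma on RPKM and also 0 by limma's voom on the read counts, while 2858 had an unadjusted p-value under 0.05 on RPKM and 2953 with voom.

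None of the 10 enzymes was called. Their levels in HE1 and HE2 lay at 83.0 to 118% of the NC mean, and those in HE3 at 22.4 to 85.8%. HE3 was the lowest of the 6 samples for 9 of the 10 enzymes, where 44.4% of all tested genes had HE3 lowest, and the exception was Eno1. For Hk2, Gpi1 and Pfkl the HE3 value was below 50% of the lowest other sample, 3 of 10 members against 7.83% of tested genes. For 6 of the 10 enzymes both HE1 and HE2 lay inside the range of the NC samples, against 20% of tested genes. In bulk RNA, fewer cells with high levels and lower levels per cell cannot be told apart.

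The 10 mRNAs summed to 5134, 4912 and 5933 RPKM in NC1, NC2 and NC3, 5161 and 5675 RPKM in HE1 and HE2, and 2956 RPKM in HE3. They took up 1.79%, 1.69% and 2.08% of all reads on genes in the NC samples, 1.76% and 1.96% in HE1 and HE2, and 0.984% in HE3. HE1 and HE2 thus lay within the NC range of this share, and HE3 below it.

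**Figure D1:**
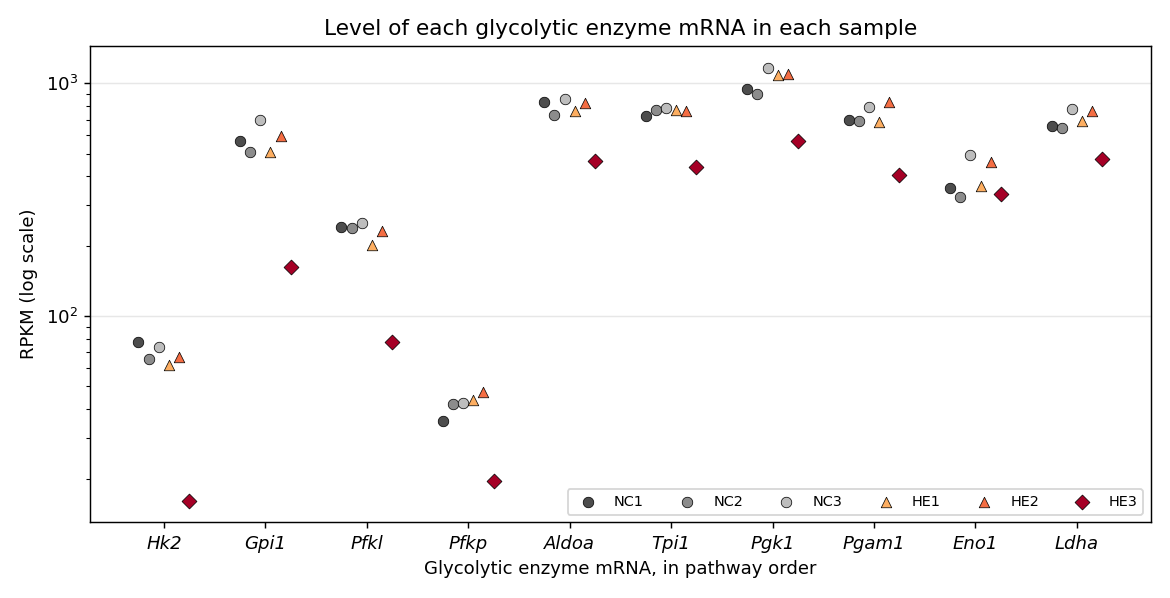
RPKM on a log axis of the 10 glycolytic enzyme mRNAs, in pathway order, with 1 point per sample (grey circles NC1 to NC3, triangles HE1 and HE2, diamond HE3). HE1 and HE2 sit among or beside the NC samples for each enzyme, and HE3 lies below all other samples except for Eno1, where NC2 is lower.

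The enzymes of the preparatory steps, in which ATP is spent, came first. Hk2 (ENSMUSG00000000628, chr6:82725025-82774454, minus strand) encodes hexokinase 2, which can bind to mitochondria and is high in proliferating cells. Hk2 was at 77.6, 65.4 and 73.6 RPKM in NC1, NC2 and NC3, 62.0 and 66.8 RPKM in HE1 and HE2, and 16.2 RPKM in HE3. The NC and HE2 values overlapped, HE1 lay just under the lowest NC sample, and HE3 held 22.4% of the NC mean, the smallest share of the 10 (log2 fold change -0.82, standard error 0.51, adjusted p = 0.352 in limma, and -0.16 without HE3).

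Gpi1 (ENSMUSG00000036427, chr7:34201327-34230336, minus strand) encodes glucose-6-phosphate isomerase, the sole enzyme of its step. Its mRNA was at 566, 509 and 693 RPKM in NC1, NC2 and NC3, 509 and 592 RPKM in HE1 and HE2, and 163 RPKM in HE3. HE1 and HE2 lay within the NC range and HE3 was at 27.6% of the NC mean (log2 fold change -0.68, standard error 0.47, adjusted p = 0.401 in limma, and -0.09 without HE3).

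Pfkl (ENSMUSG00000020277, chr10:77986947-78009807, minus strand) encodes the liver-type subunit of phosphofructokinase. Its level was 243, 239.6 and 252 RPKM in NC1, NC2 and NC3, 203 and 232 RPKM in HE1 and HE2, and 77.4 RPKM in HE3. The NC samples lay close together, each HE sample was below all of them, and HE3 was at 31.6% of the NC mean (log2 fold change -0.67, standard error 0.39, adjusted p = 0.330 in limma, and -0.17 without HE3). Pfkl was the 1 member whose groups did not overlap, with HE lower, which 17.9% of tested genes also showed. Pfkp (ENSMUSG00000021196, chr13:6579874-6649060, minus strand) encodes the platelet-type subunit of the same enzyme and had the lowest RPKM of the members in NC. It was measured at 35.7, 42.1 and 42.6 RPKM in NC1, NC2 and NC3, 43.7 and 47.5 RPKM in HE1 and HE2, and 19.7 RPKM in HE3. In HE1 and HE2 Pfkp was above each NC sample, while HE3 was at 49.0% of the NC mean, so the log2 fold change was -0.22 with HE3 (standard error 0.32, adjusted p = 0.695 in limma) and 0.19 without it (standard error 0.11, adjusted p = 0.376).

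Aldoa (ENSMUSG00000030695, chr7:126795234-126800994, minus strand) encodes aldolase A, which cleaves fructose-1,6-bisphosphate. Aldoa was at 829, 729.8 and 854 RPKM in NC1, NC2 and NC3, 758 and 822 RPKM in HE1 and HE2, and 463 RPKM in HE3. HE1 and HE2 were inside the NC range, and HE3 was at 57.6% of the NC mean (log2 fold change -0.28, standard error 0.24, adjusted p = 0.494 in limma, and -0.02 without HE3). Tpi1 (ENSMUSG00000023456, chr6:124810586-124814158, minus strand) encodes triose phosphate isomerase, which keeps both products of that cleavage in the pathway. The Tpi1 level was 722, 766 and 785 RPKM in NC1, NC2 and NC3, 765 and 764 RPKM in HE1 and HE2, and 436 RPKM in HE3. The 5 samples other than HE3 spanned only 722 to 785 RPKM, and HE3 was at 57.5% of the NC mean (log2 fold change -0.26, standard error 0.24, adjusted p = 0.535 in limma, and 0.01 without HE3).

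Of the ATP-yielding steps, Pgk1 (ENSMUSG00000062070, chrX:106187100-106203699, plus strand) encodes phosphoglycerate kinase 1, which makes the first ATP of the pathway, and it had the highest RPKM of the members. Its mRNA was found at 949.8, 903 and 1169.7 RPKM in NC1, NC2 and NC3, 1086 and 1095 RPKM in HE1 and HE2, and 567 RPKM in HE3. HE1 and HE2 lay within the NC range and HE3 at 56.3% of the NC mean (log2 fold change -0.19, standard error 0.29, adjusted p = 0.703 in limma, and 0.12 without HE3). Pgam1 (ENSMUSG00000011752, chr19:41911871-41918665, plus strand) encodes phosphoglycerate mutase 1, which moves the phosphate ahead of the enolase step. Pgam1 was at 699.5, 688 and 792 RPKM in NC1, NC2 and NC3, 681 and 832 RPKM in HE1 and HE2, and 406 RPKM in HE3. HE1 was just under and HE2 above the NC range, and HE3 was at 55.8% of the NC mean (log2 fold change -0.24, standard error 0.27, adjusted p = 0.598 in limma, and 0.05 without HE3).

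Eno1 (ENSMUSG00000063524, chr4:150236708-150248879, plus strand) encodes enolase 1, which forms phosphoenolpyruvate. Eno1 was measured at 355, 326 and 492 RPKM in NC1, NC2 and NC3, 364 and 460.2 RPKM in HE1 and HE2, and 335 RPKM in HE3. It was the member with the widest spread within NC relative to its mean (coefficient of variation 22.7%), where NC3 was the highest and NC2 the lowest sample of all 6, and HE3 lay inside the NC range at 85.8% of the NC mean (log2 fold change -0.01, standard error 0.21, adjusted p = 0.986 in limma, and 0.09 without HE3). The sign of this fold change turned with the scaling: it was 0.06 after median-of-ratios scaling and 0.03 with voom. Ldha (ENSMUSG00000063229, chr7:46842274-46855627, plus strand) encodes the A subunit of lactate dehydrogenase, which favours the formation of lactate. Its level was 655, 644 and 778 RPKM in NC1, NC2 and NC3, 689 and 764 RPKM in HE1 and HE2, and 474 RPKM in HE3. HE1 and HE2 were within the NC range, and HE3 was at 68.4% of the NC mean (log2 fold change -0.13, standard error 0.22, adjusted p = 0.723 in limma, and 0.07 without HE3).

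Taken with all 3 HE samples, the log2 fold change was below 0 for 10 of the 10 enzymes (9 with median-of-ratios scaling or voom), with a median of -0.25, against a median of -0.06 over all tested genes, of which 56.2% were below 0. None of the 10 (0) had an unadjusted p-value under 0.05, where 11.8% of tested genes were lower and 8.68% higher in HE at that level. Standard errors of the members ran from 0.21 to 0.51 and adjusted p-values from 0.330 to 0.986. Without HE3, 4 enzymes were below 0 and 6 above, with a median of 0.03, single values between -0.17 and 0.19 and standard errors of 0.10 to 0.21, and 50% of tested genes were below 0. The smallest adjusted p-value was then 0.376, that of Pfkp. Reads per member and sample numbered 1552 to 84754, so each value rested on many reads.

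**Figure D2:**
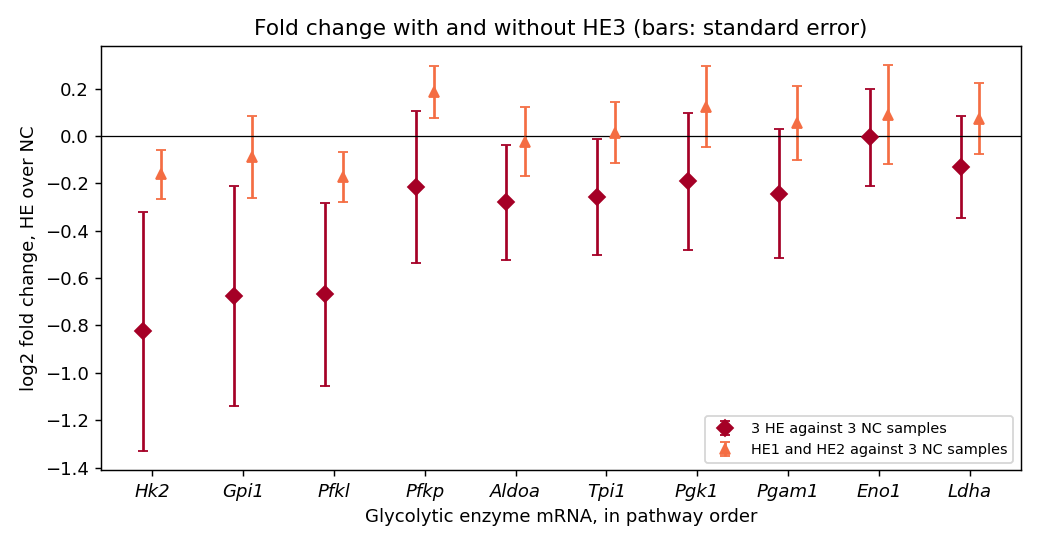
Log2 fold change of HE over NC for each enzyme, in pathway order, with all 3 HE samples (diamonds) and with HE1 and HE2 only (triangles); bars are the standard errors from limma. With HE3 the values run from -0.82 for Hk2 to -0.01 for Eno1 with standard errors up to 0.51, and without it they lie between -0.17 and 0.19.

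The HE3 values were uneven along the pathway, with the lowest shares of the NC mean in the early steps and the highest in the late ones. Summed over the enzymes of a step, HE3 was at 33.0% of the NC mean for hexokinases, 27.6% for the isomerase and 42.2% for phosphofructokinases. The middle steps lay between 56.3% and 64.4%, from aldolase (64.4%) through glyceraldehyde-3-phosphate dehydrogenase (61.0%) to phosphoglycerate mutase (56.9%). The last steps kept the highest shares, at 79.7% for enolases, 80.7% for pyruvate kinases and 76.0% for lactate dehydrogenases. The same step sums in HE1 and HE2 ranged from 82.9% to 114%. As HE3 is a single sample, this gradient has no replicate.

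**Figure D3:**
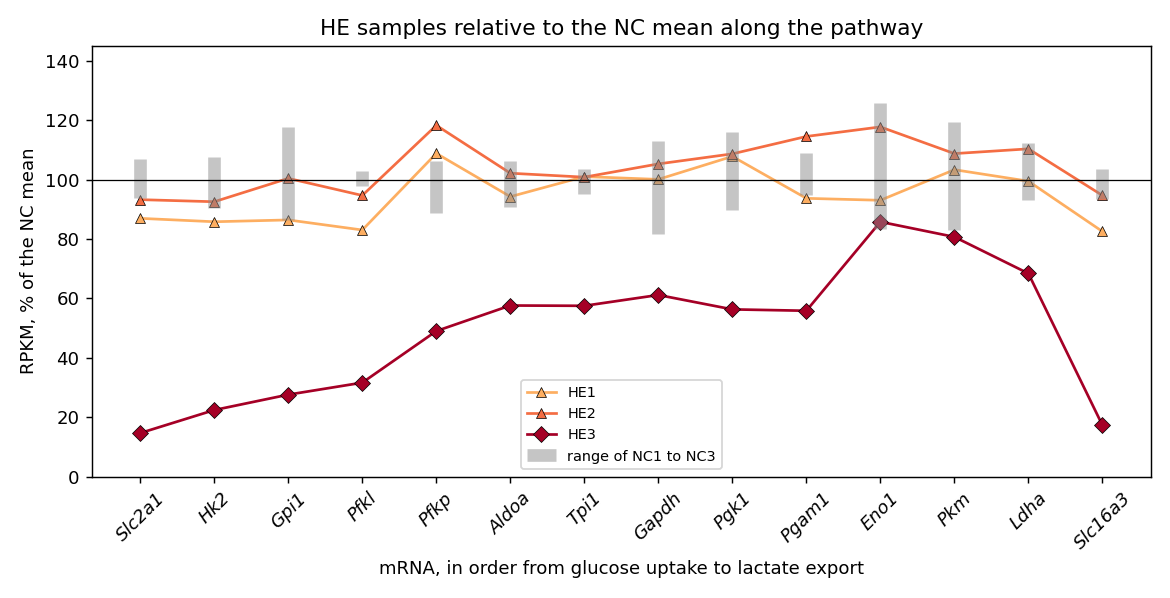
RPKM of HE1, HE2 and HE3 as a percentage of the NC mean for the 10 enzymes, Gapdh and Pkm, with the glucose transporter Slc2a1 and the lactate exporter Slc16a3 at the ends; grey bars span NC1 to NC3. HE1 and HE2 stay between 82.5 and 118%, while HE3 goes from 14.6% at Slc2a1 to 85.8% at Eno1 and back to 17.3% at Slc16a3.

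Ratios of members within a sample do not depend on the scaling of that sample. The ratio of Eno1 to Gpi1 was 0.627, 0.640 and 0.709 in NC1, NC2 and NC3, 0.714 and 0.777 in HE1 and HE2, and 2.06 in HE3. The ratio of Ldha to Hk2 was 8.44, 9.85 and 10.6 in NC1, NC2 and NC3, 11.1 and 11.4 in HE1 and HE2, and 29.3 in HE3. In both, HE1 and HE2 lay slightly above all NC samples and HE3 far above them. These pairs were not planned. They set members with a high HE3 share of the NC mean (Eno1 85.8%, Ldha 68.4%) over members with a low one (Gpi1 27.6%, Hk2 22.4%). The HE3 ratios thus restate those shares and add no separate evidence. How often other pairs of genes separate the groups was not counted. By contrast, the ratio of Pgk1 to Pfkp in HE3, at 28.8, was near that of the NC samples, which ran from 21.4 to 27.4.

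In NC the order of mean RPKM was Pgk1, Aldoa, Tpi1, Pgam1, Ldha, Gpi1, Eno1, Pfkl, Hk2 and Pfkp. The NC ranges of neighbours overlapped from Aldoa through Tpi1, Pgam1 and Ldha to Gpi1, so these did not differ from their neighbours beyond the spread, and Pgk1, Eno1, Pfkl, Hk2 and Pfkp were separated from the next lower or higher member by non-overlapping ranges. In HE3, Ldha stood in rank 2 where it had rank 5 in NC, Gpi1 stood behind Eno1, and Hk2 had the lowest RPKM, behind Pfkp. The order depends on the gene lengths used for RPKM. Eno1, with a length of 5379 bases, held 35845, 33516 and 50130 reads in NC1, NC2 and NC3. Pgam1, with 1831 bases and a higher RPKM, held fewer reads, at 24039, 24107 and 27477.

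The bases before annotated transcript starts of the members were read from RefSeq (GRCm38.p6), because HE3 was lowest for 9 of the 10 members and HIF-1 is known to bind ACGTG and GCGTG. Shown are the members with the lowest HE3 share of the NC mean, Hk2, Gpi1 and Pfkl, then Pgk1 and Ldha, which are classical HIF-1 targets. Each run holds the 250 bases before an annotated transcript start, 5′ to 3′ on the strand of the gene, with ACGTG or GCGTG on either strand in capitals. The start used for Ldha is an internal one, which lies inside the coordinates given for the gene, and the other Ldha window is internal as well.
Hk2, chr6:82774455-82774704, minus strand: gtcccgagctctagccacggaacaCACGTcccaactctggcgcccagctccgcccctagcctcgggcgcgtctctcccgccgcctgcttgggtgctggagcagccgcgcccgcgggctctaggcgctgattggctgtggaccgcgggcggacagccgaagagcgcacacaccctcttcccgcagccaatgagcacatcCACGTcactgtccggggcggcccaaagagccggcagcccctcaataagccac
Gpi1, chr7:34230337-34230586, minus strand: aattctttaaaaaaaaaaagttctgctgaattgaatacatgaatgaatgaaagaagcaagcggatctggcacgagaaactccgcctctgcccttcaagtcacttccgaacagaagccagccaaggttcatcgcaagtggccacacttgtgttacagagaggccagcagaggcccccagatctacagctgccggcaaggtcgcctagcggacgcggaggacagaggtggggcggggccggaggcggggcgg
Pfkl, chr10:78009808-78010057, minus strand: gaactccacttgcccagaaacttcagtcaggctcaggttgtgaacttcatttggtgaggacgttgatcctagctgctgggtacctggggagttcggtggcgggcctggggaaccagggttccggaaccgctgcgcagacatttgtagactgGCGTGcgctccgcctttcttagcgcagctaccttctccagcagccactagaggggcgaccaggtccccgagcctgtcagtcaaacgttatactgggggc
Pgk1, chrX:106186850-106187099, plus strand: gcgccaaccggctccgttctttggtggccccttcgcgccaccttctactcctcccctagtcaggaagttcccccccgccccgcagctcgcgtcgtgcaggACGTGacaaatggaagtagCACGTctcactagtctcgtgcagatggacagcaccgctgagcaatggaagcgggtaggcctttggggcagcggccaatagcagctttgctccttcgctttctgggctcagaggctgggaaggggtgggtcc
Ldha, chr7:46845554-46845803, plus strand: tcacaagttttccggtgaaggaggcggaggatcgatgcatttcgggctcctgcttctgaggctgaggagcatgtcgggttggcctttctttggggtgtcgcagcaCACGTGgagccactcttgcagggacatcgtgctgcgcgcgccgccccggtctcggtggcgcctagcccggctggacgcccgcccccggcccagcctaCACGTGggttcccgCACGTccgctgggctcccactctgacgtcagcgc

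In windows that ran from 250 bases before to 50 after the transcript start, Hk2 held 2 matches, Gpi1 0, Pfkl 1, Pgk1 2 and this window of Ldha 7. CACGTG, the E-box letters bound by Myc and its partners, contains ACGTG and was found in windows of only 1 member, Ldha. Each of the 2 CACGTG in the Ldha window shown was counted on both strands, and so made up 2 of its 7 matches. All 10 members had at least 1 window, 15 in all, and 8 members had a match to ACGTG or GCGTG in at least 1 of them, the exceptions being Gpi1 and Tpi1. Counted by window, 12 of the 15 held a match, though some windows of Aldoa and of Eno1 overlap and share the same matches. The shares below are per window, so the count by member, with 1 or more windows each, cannot be set against them. Of all 32851 windows, 43.8% held ACGTG or GCGTG, 19.6% ACGTG, 32.4% GCGTG and 7.15% CACGTG, and among the 13969 windows of tested genes 60.8% held ACGTG or GCGTG. Gpi1, with no match, was at 27.6% of the NC mean in HE3, and Hk2, with 2 matches, at 22.4%. A match to letters is a description and not a binding site.

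Other enzymes of the same 11 steps were listed as well, 20 genes of which 16 were tested. Of these, 12 had a log2 fold change below 0 and 4 above, 1 was higher (8.68% of tested genes) and 1 lower (11.8%) at an unadjusted p-value under 0.05, none was called, and HE3 was lowest in 11 (44.4%). In 3 of the 16, HE lay below NC without overlap, near the 17.9% of all tested genes, and in 1 above (14.8%). Their median log2 fold change was -0.42, and -0.07 without HE3. Gapdh, glyceraldehyde-3-phosphate dehydrogenase, was at 1194, 928 and 1281 RPKM in NC1, NC2 and NC3, 1135 and 1194 RPKM in HE1 and HE2, and 694 RPKM in HE3, with HE1 and HE2 inside the NC range and HE3 below it (log2 fold change -0.20, and 0.05 without HE3). Pkm, pyruvate kinase, had the highest RPKM of all enzymes of the pathway. It was at 1681, 1429 and 2051 RPKM in NC1, NC2 and NC3, 1778 and 1871 RPKM in HE1 and HE2, and 1388 RPKM in HE3, and only HE3 lay outside the NC range (log2 fold change -0.03, standard error 0.23, adjusted p = 0.941 in limma, and 0.10 without HE3). With median-of-ratios scaling or voom this value was above 0, at 0.03 and 0.0088.

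Eno2, the neuronal enolase, showed the largest log2 fold change among these 16 enzymes. It was at 31.4, 30.4 and 26.7 RPKM in NC1, NC2 and NC3, 17.5 and 15.3 RPKM in HE1 and HE2, and 2.80 RPKM in HE3. All HE samples lay below all NC samples, which 17.9% of tested genes shared, and HE1 and HE2 were also well below NC (log2 fold change -1.68, standard error 0.63, adjusted p = 0.220 in limma, and -0.85 without HE3, where the adjusted p was 0.103). Hk1, the hexokinase most widespread in brain, was at 59.2, 57.8 and 64.1 RPKM in NC1, NC2 and NC3, 47.7 and 53.1 RPKM in HE1 and HE2, and 27.0 RPKM in HE3, with the groups apart (17.9% of tested genes, log2 fold change -0.56, and -0.26 without HE3). Bpgm, which makes 2,3-bisphosphoglycerate, was the 1 of the list above NC in all HE samples (14.8% of tested genes), at 10.6 to 12.5 RPKM in NC, 14.1 to 15.5 RPKM in HE1 and HE2 and 15.1 RPKM in HE3 (log2 fold change 0.37, standard error 0.11, adjusted p = 0.195 in limma, and 0.36 without HE3).

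Aldoc, the aldolase of astrocytes, was at 98.4, 151 and 107 RPKM in NC1, NC2 and NC3, 140.0 and 164 RPKM in HE1 and HE2, and 132 RPKM in HE3 (log2 fold change 0.30, and 0.37 without HE3), with overlapping groups. Ldhb, the subunit that favours the use of lactate, was at 168, 126 and 169.6 RPKM in NC1, NC2 and NC3, 173 and 128 RPKM in HE1 and HE2, and 170.4 RPKM in HE3. Its HE3 value was close to the higher NC samples, and the log2 fold change of 0.03 became -0.04 without HE3 and -0.18 with sample weights. Pfkm, the muscle-type phosphofructokinase subunit, was at 90.9 to 100.3 RPKM in NC, 86.7 to 91.8 RPKM in HE1 and HE2 and 63.9 RPKM in HE3 (log2 fold change -0.27, and -0.11 without HE3). Further enzymes were low, with NC means of 0.623 to 6.35 RPKM, and had log2 fold changes of -0.59 for Hkdc1, -1.01 for Gapdhs, whose groups did not overlap, -0.60 for Pgam2, -0.54 for Eno3, -0.84 for Eno4 and -0.56 for Ldhd. Without HE3 these were -0.67, -0.32, -0.24, -0.20, -0.55 and -0.03 in the same order. Hk3, Pgk2, Pklr and Ldhc did not pass the filter on reads.

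Within a step, the share of each enzyme in the summed RPKM was compared between the groups by exact permutation of the group labels (two-sided, all 20 ways to split the 6 samples), which cannot give a p below 0.1. For 8 shares the adjusted p-values were 0.4 or 0.8. The Pfkp share of phosphofructokinase was 9.66, 11.0 and 10.9% in NC1, NC2 and NC3, 12.9 and 13.0% in HE1 and HE2, and 12.2% in HE3, with each HE sample above each NC sample (exact p = 0.1, adjusted 0.4, difference of means 2.19 percentage points), and HE3 did not stand apart here. The Pfkl share was 65.8, 62.7 and 64.1% in NC1, NC2 and NC3, 60.0 and 63.3% in HE1 and HE2, and 48.1% in HE3 (exact p = 0.2, adjusted 0.4). The Hk2 share of hexokinase was 55.4, 51.8 and 52.6% in NC1, NC2 and NC3, 55.2 and 54.5% in HE1 and HE2, and 36.2% in HE3. HE1 and HE2 were at NC values, and in HE3 Hk1 had a higher RPKM than Hk2 (exact p = 0.8, adjusted 0.8).

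The Aldoa share of aldolase was 89.4, 82.8 and 88.8% in NC1, NC2 and NC3, 84.4 and 83.4% in HE1 and HE2, and 77.9% in HE3 (exact p = 0.3, adjusted 0.4). The Eno1 share of enolase was 89.9, 89.4 and 93.5% in NC1, NC2 and NC3, 93.5 and 95.6% in HE1 and HE2, and 98.2% in HE3 (exact p = 0.2, adjusted 0.4). Here HE3 was the highest, as Eno2 was at its lowest there, and HE1 lay a little below NC3. The Ldha share of lactate dehydrogenase was 79.5, 83.5 and 82.0% in NC1, NC2 and NC3, 79.8 and 85.5% in HE1 and HE2, and 73.5% in HE3 (exact p = 0.7, adjusted 0.8). Pgam1 made up 96.0 to 98.1% of its step (exact p = 0.3, adjusted 0.4) and Gapdh 99.6 to 99.9% (exact p = 0.2, adjusted 0.4) across the 6 samples.

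**Figure D4:**
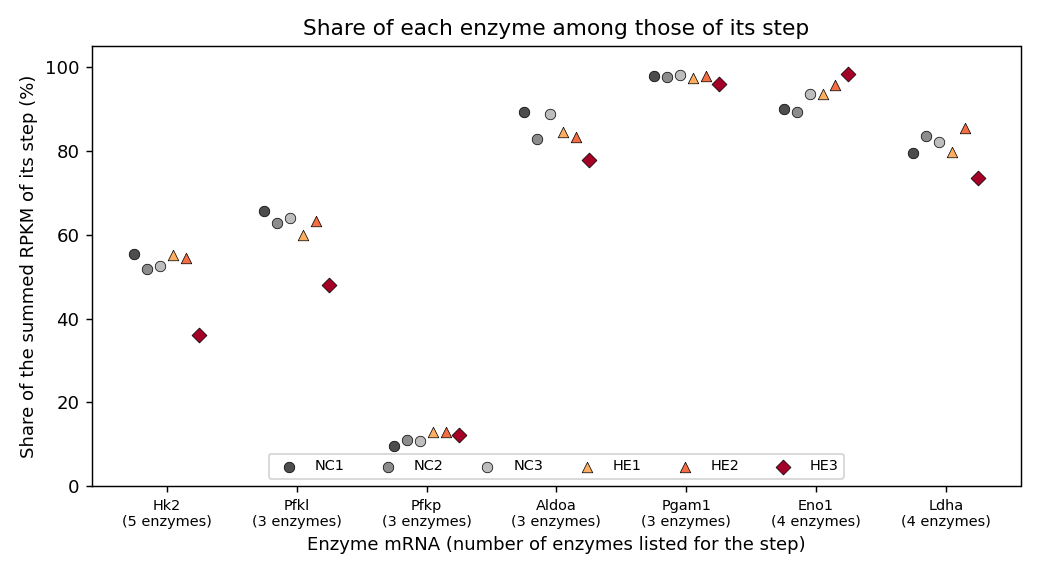
Share of an enzyme in the summed RPKM of the enzymes of its step, in percent, with 1 point per sample. The Pfkp share is higher in all 3 HE samples (12.2 to 13.0%) than in the NC samples (9.66 to 11.0%), and HE3 has the lowest shares of Hk2 (36.2%) and Pfkl (48.1%) and the highest of Eno1 (98.2%).

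Glucose enters and lactate leaves the cell through transporters. Of 11 listed, 9 were tested, 8 had a log2 fold change below 0, 3 had HE below NC without overlap (17.9% of tested genes), 1 was lower at an unadjusted p-value under 0.05 (11.8%), and HE3 was lowest in 8 (44.4%) and below 50% of the lowest other sample in 3 (7.83%). The median log2 fold change was -0.43, and -0.15 without HE3. Named after their values were seen, the main glucose transporter Slc2a1 was at 256, 272 and 292 RPKM in NC1, NC2 and NC3, 237 and 255 RPKM in HE1 and HE2, and 40.0 RPKM in HE3. The lactate exporter Slc16a3, named in the same way, was at 64.5 to 71.4 RPKM in NC, 57.0 to 65.4 RPKM in HE1 and HE2 and 12.0 RPKM in HE3. By the rule for named genes, Bsg, the chaperone of the lactate transporters, was at 1025 to 1059 RPKM in NC, 927 to 1059 RPKM in HE1 and HE2 and 477 RPKM in HE3 (log2 fold change -0.42, and -0.07 without HE3). Slc2a8, an intracellular glucose transporter, was at 8.53 to 8.82 RPKM in NC, 6.50 to 7.24 RPKM in HE1 and HE2 and 3.90 RPKM in HE3 (log2 fold change -0.59, standard error 0.23, adjusted p = 0.223 in limma, and -0.33 without HE3). Slc2a4, the insulin-responsive transporter, had a log2 fold change of -0.39 with and -0.26 without HE3. Slc16a1, the transporter MCT1, was at 52.7 to 62.8 RPKM in NC, 51.2 to 57.5 RPKM in HE1 and HE2 and 40.6 RPKM in HE3 (log2 fold change -0.25, and -0.12 without HE3). As a share of the NC mean, HE3 stood at 14.6% for Slc2a1 and 17.3% for Slc16a3, below each of the 10 enzymes, and at 68.8% for Slc16a1.

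Of 14 listed regulators of glycolysis, 11 were tested, 9 had a log2 fold change below 0, 4 had HE below NC without overlap (17.9% of tested genes) and 1 was lower at an unadjusted p-value under 0.05 (11.8%), with a median of -0.39 (0.01 without HE3). HE3 was the lowest sample in 9 (44.4% of tested genes). Pfkfb3, which makes the activator of phosphofructokinase, was at 48.5, 47.5 and 55.1 RPKM in NC1, NC2 and NC3, 38.2 and 41.8 RPKM in HE1 and HE2, and 10.5 RPKM in HE3, with all HE below all NC samples (log2 fold change -0.97, standard error 0.49, adjusted p = 0.286 in limma, and -0.33 without HE3). Pdk4, a kinase that switches off pyruvate dehydrogenase, was at 4.07 to 5.70 RPKM in NC, 2.54 to 3.25 RPKM in HE1 and HE2 and 1.20 RPKM in HE3 (log2 fold change -1.19, standard error 0.35, adjusted p = 0.195 in limma, and -0.80 without HE3). Pdk2, of the same family, was at 7.93 to 8.95 RPKM in NC, 7.10 to 7.46 RPKM in HE1 and HE2 and 4.33 RPKM in HE3 (log2 fold change -0.44, and -0.20 without HE3).

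Downstream, the 8 genes of pyruvate entry into mitochondria and its oxidation had 7 log2 fold changes above 0, 4 at an unadjusted p-value under 0.05 (8.68% of tested genes), 4 with HE above NC without overlap (14.8%), and a median of 0.26 (0.23 without HE3). Pdha1, a subunit of pyruvate dehydrogenase, was at 60.0, 52.5 and 76.1 RPKM in NC1, NC2 and NC3, 83.2 and 77.3 RPKM in HE1 and HE2, and 100.3 RPKM in HE3 (log2 fold change 0.48, standard error 0.17, adjusted p = 0.210 in limma, and 0.37 without HE3). Pdhx and Dld of the same complex had log2 fold changes of 0.40 and 0.34 (0.30 and 0.23 without HE3), with each HE sample above each NC sample. The ratio of Ldha to Pdha1, which was not planned, was 10.9, 12.3 and 10.2 in NC1, NC2 and NC3, 8.27 and 9.89 in HE1 and HE2, and 4.72 in HE3, so all HE samples lay below all NC samples. Pdha1 alone was already above each NC sample in each HE sample (14.8% of tested genes). Ldha in HE1 and HE2 lay within the NC range, so for these samples the ratio mostly restates Pdha1. The 18 genes listed for the tricarboxylic acid cycle included the cytosolic enzyme Mdh1. Of the 18, 17 were above 0, 11 with an unadjusted p-value under 0.05 (8.68% of tested genes). In 15, HE lay above NC without overlap (14.8% of tested genes), and HE3 was highest in 16 (24.5% of tested genes). Their median log2 fold change was 0.38, and 0.28 without HE3, where the same number, 17, were above 0. Mdh1, the cytosolic malate dehydrogenase, was at 68.3, 68.8 and 77.9 RPKM in NC1, NC2 and NC3, 99.3 and 90.6 RPKM in HE1 and HE2, and 142 RPKM in HE3 (log2 fold change 0.60, standard error 0.18, adjusted p = 0.195 in limma, and 0.41 without HE3). Fh1, fumarase, had a log2 fold change of 0.67 with and 0.48 without HE3, again with each HE sample above each NC sample. None of these genes was called.

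As HIF-1 targets outside glycolysis, 18 genes were listed and tested. All 18 had a log2 fold change below 0, 0 at an unadjusted p-value under 0.05 (11.8% of tested genes), 5 with HE below NC without overlap (17.9%), and HE3 was lowest in 18 (44.4%) and below 50% of the lowest other sample in 16 (7.83%). The median was -0.66, and -0.07 without HE3, where 12 were below 0. Ddit4, an inhibitor of mTORC1, was at 369.8, 367 and 369 RPKM in NC1, NC2 and NC3, 260.4 and 313 RPKM in HE1 and HE2, and 85.9 RPKM in HE3 (log2 fold change -0.95, standard error 0.45, adjusted p = 0.268 in limma, and -0.37 without HE3). Ndrg1, a stress-induced gene, was at 22.3 to 28.9 RPKM in NC, 14.9 to 19.4 RPKM in HE1 and HE2 and 3.30 RPKM in HE3 (log2 fold change -1.37, standard error 0.60, adjusted p = 0.250 in limma, and -0.59 without HE3). HE3 was again far below the other samples in both. Car9, a carbonic anhydrase of the cell surface, was at 34.2, 9.55 and 39.5 RPKM in NC1, NC2 and NC3, 12.7 and 12.7 RPKM in HE1 and HE2, and 0.891 RPKM in HE3 (log2 fold change -2.11, standard error 1.04, adjusted p = 0.280 in limma, and -0.88 without HE3). The NC samples of Car9 themselves spread widely. Fam162a was at 441 to 495 RPKM in NC, 488 to 491 RPKM in HE1 and HE2 and 185 RPKM in HE3 (log2 fold change -0.39, and 0.08 without HE3). The list's median difference from the NC mean was -0.15 in HE1, 0.04 in HE2 and -1.96 in HE3. Of 9 listed mRNAs of the factors that act on these genes, 7 were below 0 (56.2% of tested genes) with a median of -0.26 (-0.06 without HE3). An unadjusted p-value under 0.05 was reached by 0 (11.8% of tested genes lower and 8.68% higher). In 2, HE lay below NC without overlap (17.9%), and HE3 was lowest in 7 (44.4%). Arnt, the partner of HIF-1α, was at 5.07 to 5.49 RPKM in NC, 4.14 to 4.61 RPKM in HE1 and HE2 and 2.24 RPKM in HE3 (log2 fold change -0.57, and -0.26 without HE3), and the log2 fold changes with and without HE3 were -0.45 and -0.32 for Epas1 (HIF-2α) and -0.57 and -0.23 for Mlxip, a glucose-sensing factor. Vhl, which marks HIF-α for degradation, had a log2 fold change of -0.15 with and -0.06 without HE3.

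**Figure D5:**
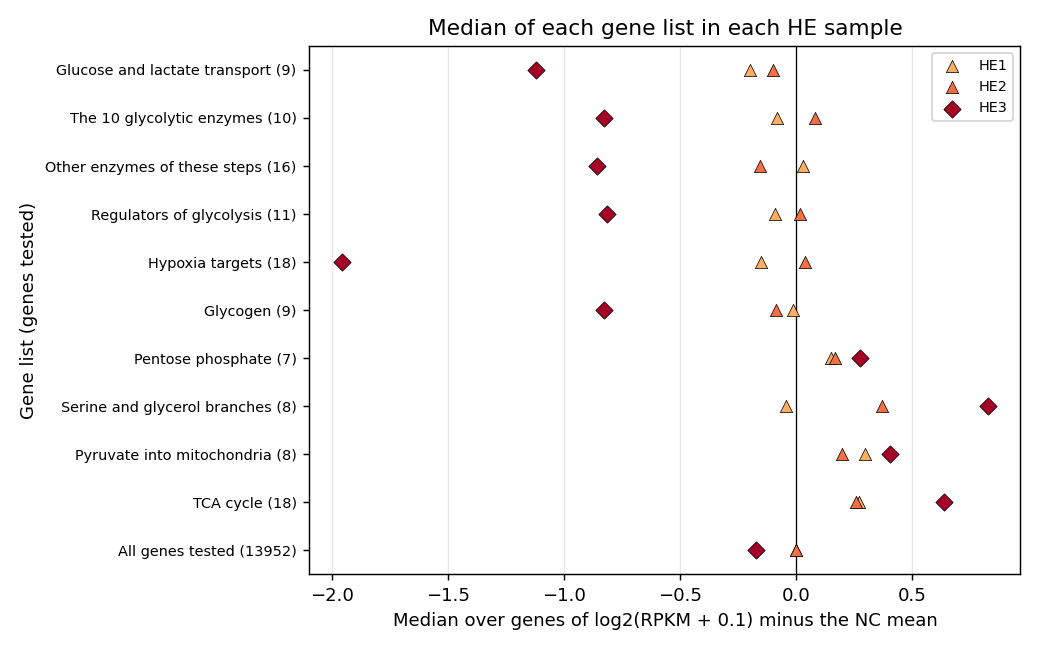
Median over the tested genes of each list (number in brackets) of log2(RPKM + 0.1) minus the NC mean, for HE1, HE2 and HE3. For the 10 enzymes the medians were -0.08 in HE1, 0.08 in HE2 and -0.83 in HE3, for the HIF-1 targets HE3 was at -1.96, and for the tricarboxylic acid cycle all HE samples were above 0.

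Other measures of HE3 were set out as well. After median-of-ratios scaling, which put HE3 at 0.899 of its read total against 1.00 to 1.03 for the other samples, HE3 was at 25.4 to 97.2% of the NC mean for the 10 enzymes. HE3 values also ran with gene length, with a median log2 difference from the NC mean of 0.11 in the shortest and -0.35 in the longest of 10 equal groups of genes by length, and for 9 of the 10 enzymes HE3 was below the median of their length group, from -0.44 for Ldha to -1.93 for Hk2, with Eno1 at 0.03. Of 11 neural progenitor markers HE3 was lowest in 5 (44.4% of tested genes) and highest in 3 (24.5%). They summed to 3099.9 to 3738 RPKM in NC, 2975 to 3382 RPKM in HE1 and HE2 and 4710.4 RPKM in HE3. Fabp7 alone was at 736 to 1323 RPKM in NC, 1211 to 1373 RPKM in HE1 and HE2 and 2383 RPKM in HE3, and the other 10 summed to 2364 to 2419 RPKM in NC, 1764 to 2009 RPKM in HE1 and HE2 and 2328 RPKM in HE3. Of 7 astrocyte markers HE3 was lowest in 4 (44.4% of tested genes) and highest in 1 (24.5%). They summed to 1306 to 1595 RPKM in NC, 992 to 1313 RPKM in HE1 and HE2 and 825 RPKM in HE3, of which Gfap was at 624 to 754 RPKM in NC, 387 to 650.5 RPKM in HE1 and HE2 and 195 RPKM in HE3. Of 7 tested oligodendrocyte lineage markers HE3 was lowest in 5 (44.4% of tested genes) and highest in 2 (24.5%). The list summed to 289.7 to 319.7 RPKM in NC, 313 to 369 RPKM in HE1 and HE2 and 514 RPKM in HE3, with Olig1 at 134 to 140.3 RPKM in NC, 143 to 188 RPKM in HE1 and HE2 and 312 RPKM in HE3. Of 10 neuronal markers HE3 was lowest in 4 (44.4% of tested genes) and highest in 3 (24.5%), with sums of 48.3 to 80.4 RPKM in NC, 55.1 to 63.0 RPKM in HE1 and HE2 and 71.0 RPKM in HE3. The counts for progenitor and neuronal markers were thus near the shares of all tested genes.

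Markers of microglia summed to 0.777 to 1.23 RPKM in NC, 2.45 to 5.02 RPKM in HE1 and HE2 and 8.33 RPKM in HE3, so the sum of each HE sample was above that of each NC sample. Only 4 of these 8 markers were tested, and in 2 of them HE lay above NC without overlap (14.8% of tested genes). The sums were 0.572 to 0.724 RPKM in NC, 0.454 to 0.510 RPKM in HE1 and HE2 and 4.45 RPKM in HE3 for red blood cells, whose embryonic globin Hbb-y was at 0 in each sample, and 2.47 to 3.42 RPKM in NC, 4.34 to 5.23 RPKM in HE1 and HE2 and 4.12 RPKM in HE3 for endothelial cells. Only 1 of the 7 red blood cell markers was tested, and HE3 was its lowest sample (44.4% of tested genes). The higher HE3 sum of that list thus came from markers that did not pass the filter on reads. Of 6 endothelial markers 3 were tested, 2 with a log2 fold change above 0 and 1 below. In 1 of them HE lay above NC without overlap (14.8% of tested genes). Mesenchymal markers summed to 21.7 to 71.1 RPKM in NC, 106 to 141 RPKM in HE1 and HE2 and 61.8 RPKM in HE3, so HE1 and HE2 were above and HE3 within the NC range. The part of cell makeup, gene length and depth in the HE3 values was not tested.

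The genes whose profile over the 6 samples was most like the mean profile of the enzymes, among 5075 genes with a mean of at least 10 RPKM, were Snrnp70 (r = 0.989), Map3k1 (0.988), Pank4 (0.986), Igsf9b (0.985) and Kbtbd11 (0.985), as Pearson correlations of log2 values over 6 samples. HE3 was the lowest sample for each of these as well, at 28.8 to 65.8% of the NC mean, so HE3 weighs heavily in the likeness. Several enzymes have near-identical copies that could share reads. Eno1b held 160 to 280 reads per sample, at most 0.593% of those of Eno1, and Pgk1-rs7 held 10 to 38 reads, at most 0.0811% of those of Pgk1. The setting for strand in counting is not given in the sources used here, so reads from overlapping genes could not be separated.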

How the data were processed

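RNA-Seq of 3 HE and 3 NC samples of first-passage NSC/NPCs was analysed from the deposited table. The authors filtered the reads, made strand-specific libraries and aligned the reads with TopHat2 to mm10, and the processing notes also name CASAVA 1.7. The tool, annotation and strand setting of the counting are not given in the sources used here. The labels and the study's methods name different Illumina sequencers. The deposited table holds raw read counts per gene. It also holds RPKM, for which the authors divided each count by the total of its sample and the length of the gene. RPKM differed from this formula by at most 4.99e-07. Large counts are written with commas, and the count columns were recorded under another unit. The commas were removed on reading, so they did not prevent a negative binomial test. None was run, although the study used one. Counts entered the filter, the depth and an alternative with voom.

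Groups were compared on log2(RPKM + 0.1) in limma 3.58.1 (R 4.3.3), with a trend of the variance on the mean, group as the only term and Benjamini-Hochberg adjustment over all 13952 genes tested. Genes entered the test with 15 or more reads over all samples and, in 3 or more samples, a level worth 10 reads at the median library size. The pseudocount makes the fold changes of low mRNAs too small. The depth of 16078675 to 19137059 reads on genes made 1 read on a gene of 1 kilobase worth 0.0523 to 0.0622 RPKM. Shares within a step were compared by an exact permutation test over samples. The fit was also run on simulated counts with the same dispersion for all genes and no sample set apart. That run does not show how the fit behaves with a sample such as HE3. Symbols were found for 21781 of 22048 identifiers, and coordinates and sequences come from RefSeq (GRCm38.p6).

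The members and lists were chosen with earlier results of these data known. The rule for named genes took all members, tested enzymes of the same steps, and of each other list at most the 3 genes with the smallest p and the 1 with the highest mean RPKM. Alternatives were a pseudocount of 1, median-of-ratios scaling, other filters, a replicate block, voom, sample weights and each sample left out. Centring within 10 groups of gene length was added after seeing the data. Protein sequences were not used here, and some results for single genes are not reported here.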

Additional observations from a re-analysis of the deposited data

How the results depend on the processing

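No setting called any of the 10 enzymes. Over all genes, the 0 calls became 268 with sample weights, which gave HE3 a weight of 0.158, and 0 to 103 with a sample left out, the 103 without NC3. The 2858 genes at an unadjusted p-value under 0.05 became 1342 to 3107 with a sample left out, the fewest without NC1 (1342) and NC2 (1638). The 10 enzymes below 0 became 5 with sample weights and 4 to 10 with a sample left out, the 4 without HE3. Those at an unadjusted p-value under 0.05 numbered 0 to 1, the 1 being Pfkl without HE2. Sample weights turned the log2 fold change to 0.21 for Pfkp, 0.093 for Pgk1, 0.090 for Pgam1, 0.16 for Eno1, 0.091 for Ldha, 0.084 for Pkm and -0.18 for Ldhb. Median-of-ratios scaling turned it to 0.055 for Eno1 and 0.030 for Pkm, voom to 0.034 and 0.0088, and centring within 10 groups of gene length to 0.084 for Eno1 and -0.069 for Ldhb. With each sample left out, log2 fold changes ran from -0.45 to 0.19 for Pfkp, -0.39 to 0.014 for Tpi1, -0.35 to 0.12 for Pgk1, -0.46 to 0.054 for Pgam1, -0.14 to 0.17 for Eno1, -0.27 to 0.072 for Ldha, -0.34 to 0.051 for Gapdh, -0.16 to 0.10 for Pkm and -0.11 to 0.17 for Ldhb. The upper ends for Pfkp, Tpi1, Pgk1, Pgam1, Ldha and Gapdh came without HE3. The difference in the share of its step ran from -7.93 to 1.58 percentage points for Hk2 and from -5.03 to 0.97 for Ldha, with the upper ends again without HE3. Apart from the samples left out, where the fit itself shows what changed, the cause was not tested.

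With the replicate number as a block, 0 genes were called, 3184 had an unadjusted p-value under 0.05 and 10 enzymes were below 0. Deviations from the group means of samples with the same number correlated at 0.156, 0.087 and 0.060. Each sample correlated best with its own number, a hint from the data and not from the design, so the numbers were not taken as pairs.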

Other observations

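Pathways that branch from glycolysis were described in the same samples. In the oxidative and sugar-exchange steps of the pentose phosphate pathway, which supply NADPH and ribose, 7 of 7 genes had a log2 fold change above 0, 1 with an unadjusted p-value under 0.05 (8.68% of tested genes), with a median of 0.14 (0.10 without HE3), and 2 had HE above NC without overlap (14.8%). Rpe, ribulose-5-phosphate epimerase, was at 11.4, 10.8 and 10.6 RPKM in NC1, NC2 and NC3, 13.1 and 13.8 RPKM in HE1 and HE2, and 17.3 RPKM in HE3 (log2 fold change 0.41, standard error 0.13, adjusted p = 0.197 in limma, and 0.29 without HE3). Tkt, transketolase, the most abundant gene of the list, was at 139 to 205 RPKM in NC, 171 to 188 RPKM in HE1 and HE2 and 162 RPKM in HE3 (log2 fold change 0.05, and 0.10 without HE3). In the branches to serine and glycerol-3-phosphate, 7 of 8 genes were above 0, 3 with an unadjusted p-value under 0.05 (8.68% of tested genes), with a median of 0.38 (0.13 without HE3), and HE3 was the highest sample in 7 (24.5%). Phgdh, which draws 3-phosphoglycerate into serine synthesis, was at 144, 130.5 and 152 RPKM in NC1, NC2 and NC3, 162 and 208 RPKM in HE1 and HE2, and 392 RPKM in HE3 (log2 fold change 0.74, standard error 0.30, adjusted p = 0.238 in limma, and 0.37 without HE3). Psat1, the next enzyme of serine synthesis, was at 51.5 to 52.3 RPKM in NC, 62.7 to 71.0 RPKM in HE1 and HE2 and 112 RPKM in HE3 (log2 fold change 0.61, and 0.36 without HE3), and Shmt1, which turns serine into glycine, at 6.39 to 8.93 RPKM in NC, 9.21 to 12.0 RPKM in HE1 and HE2 and 17.2 RPKM in HE3 (log2 fold change 0.71, and 0.48 without HE3).

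Of 9 tested genes of glycogen metabolism, 7 were below 0 (56.2% of tested genes), 0 at an unadjusted p-value under 0.05, with a median of -0.31 (-0.03 without HE3). Gys1, glycogen synthase, was at 79.4, 81.3 and 75.3 RPKM in NC1, NC2 and NC3, 56.0 and 72.9 RPKM in HE1 and HE2, and 21.9 RPKM in HE3, with all HE below all NC samples (log2 fold change -0.81, standard error 0.40, adjusted p = 0.280 in limma, and -0.30 without HE3). It was the only 1 of the 9 with HE below NC without overlap, which 17.9% of tested genes also showed. Pygb, brain glycogen phosphorylase, was at 139 to 175 RPKM in NC, 136 to 159.6 RPKM in HE1 and HE2 and 85.6 RPKM in HE3 (log2 fold change -0.31, and -0.05 without HE3). Of 5 gluconeogenic genes only Pck2 and G6pc3 were tested, with log2 fold changes of 0.07 and -0.16. Without HE3 they were -0.25 and -0.09, so the sign of Pck2 turned. None of the genes of these branches was called.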
